A study of Arabidopsis thaliana with 4 samples.

Results

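The ATH1 array of Arabidopsis thaliana carries a run of consecutively numbered probe sets for genes and open reading frames of the mitochondrial genome. The run was taken from the probe set numbered just before that of nad4L (244902_at) to the second one after that of nad4 (244929_at). All 31 of its probe sets were in the deposited table of 22746 probe sets, controls left out, and they are described here for leaves with and without whitefly nymphs. Membership was set by id number. The platform annotation gives 7 of the 31 a single mitochondrial gene and 3 a single gene of nuclear chromosome 2, and 21 are unnamed here and are called by their probe set id. Of the 31, 22 have probes of their own (5 named, 17 unnamed) and 9 are kept apart: 8 carry the suffix _s_at, which marks probes shared by several transcripts, and 244927_at is annotated to the nuclear locus AT2G07776.

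The infested group was rosette leaves of accession Columbia carrying developing silverleaf whiteflies (SLWF; Bemisia tabaci type B). Each plant had received 100 adults at an age of 21 days, the adults were aspirated off after 7 days, and leaves were taken 28 days after infestation from plants 7 weeks old. The uninfested group was leaves of matched development from plants of the same age and accession that received no insects and were caged in the same way, and both groups grew under 8 h of light a day. Each group had 2 arrays. The RNA on an array was a pool of 2 experiments with 20 plants in all, so p-values measure the spread between pools.

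Plant mitochondria keep a small genome of their own. It encodes core subunits of the respiratory chain complexes and of ATP synthase, parts of the machinery that attaches heme to cytochrome c, ribosomal proteins, an intron maturase and many reading frames of unknown function, while most other mitochondrial proteins come from nuclear genes. In these mitochondria a poly(A) tail marks an RNA for decay, unlike in the cytosol, and the nuclear chromosome 2 of Arabidopsis carries a long insertion of mitochondrial DNA, so a probe can match both genomes.

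The arrays had been scaled by the authors to a common mean and their median signals were 205.2 and 185.25 on the infested and 189.2 and 193.8 on the uninfested arrays. Signals were compared as log2(signal + 16), probe sets whose mean lay under the 40th percentile (a signal of about 116) were not tested, and a probe set was called at an adjusted p under 0.05 (limma with Benjamini-Hochberg adjustment). Of 13648 tested probe sets 733, or 5.37%, were called, 386 higher and 347 lower in infested leaves, or 342 higher and 589 lower with each array scaled to a common median. Infested replicate 1 and 2 differed more from each other (SD of log2 differences 0.526) than the uninfested pair (0.280). An exact two-sided permutation test of 2 arrays against 2 cannot give a p under 0.333. RCA, the Rubisco activase gene of green leaf cells, read 17614 to 19115 on infested and 19523 to 21392 on uninfested arrays.

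The probe sets of this run bright enough to test were all higher in infested leaves by value, and none passed the test. Of the 31 members 11 were tested, and their median log2 change was 0.56, with a range from 0.06 for mttB to 0.80 for the first probe set of the run. Over all tested probe sets the median was 0.04, and 53.5% of them had a change above 0. Limma called 0 of the 11 higher and 0 lower (adjusted p from 0.0869 to 0.897), against 2.83% called higher and 2.54% called lower among all tested probe sets. At an unadjusted p under 0.05 there were 5 higher members and 0 lower ones, where 14.1% of all tested probe sets were higher. Both infested arrays exceeded both uninfested arrays for 9 of the 11, against 33.8% of all tested probe sets. Among the 7 with probes of their own this held for 7, with 4 at an unadjusted limma p under 0.05. Among the 4 kept apart as shared or nuclear it held for 2, with 1 at an unadjusted limma p under 0.05. One of the 11, 244924_at, passed the filter through its infested values alone, and without it 10 of 10 were above 0, 8 did not overlap and the median was 0.59. It has probes of its own, and the 6 other tested members with their own probes did not overlap. On all 4 arrays 14 of the 31 members lay above the brightest of 27 controls for transcripts that were absent, against 70.1% of all probe sets, and 8 lay at or below it on all arrays. In bulk leaf RNA, more or fewer cells of a type and more or less RNA per cell cannot be told apart.

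**Figure D1:**
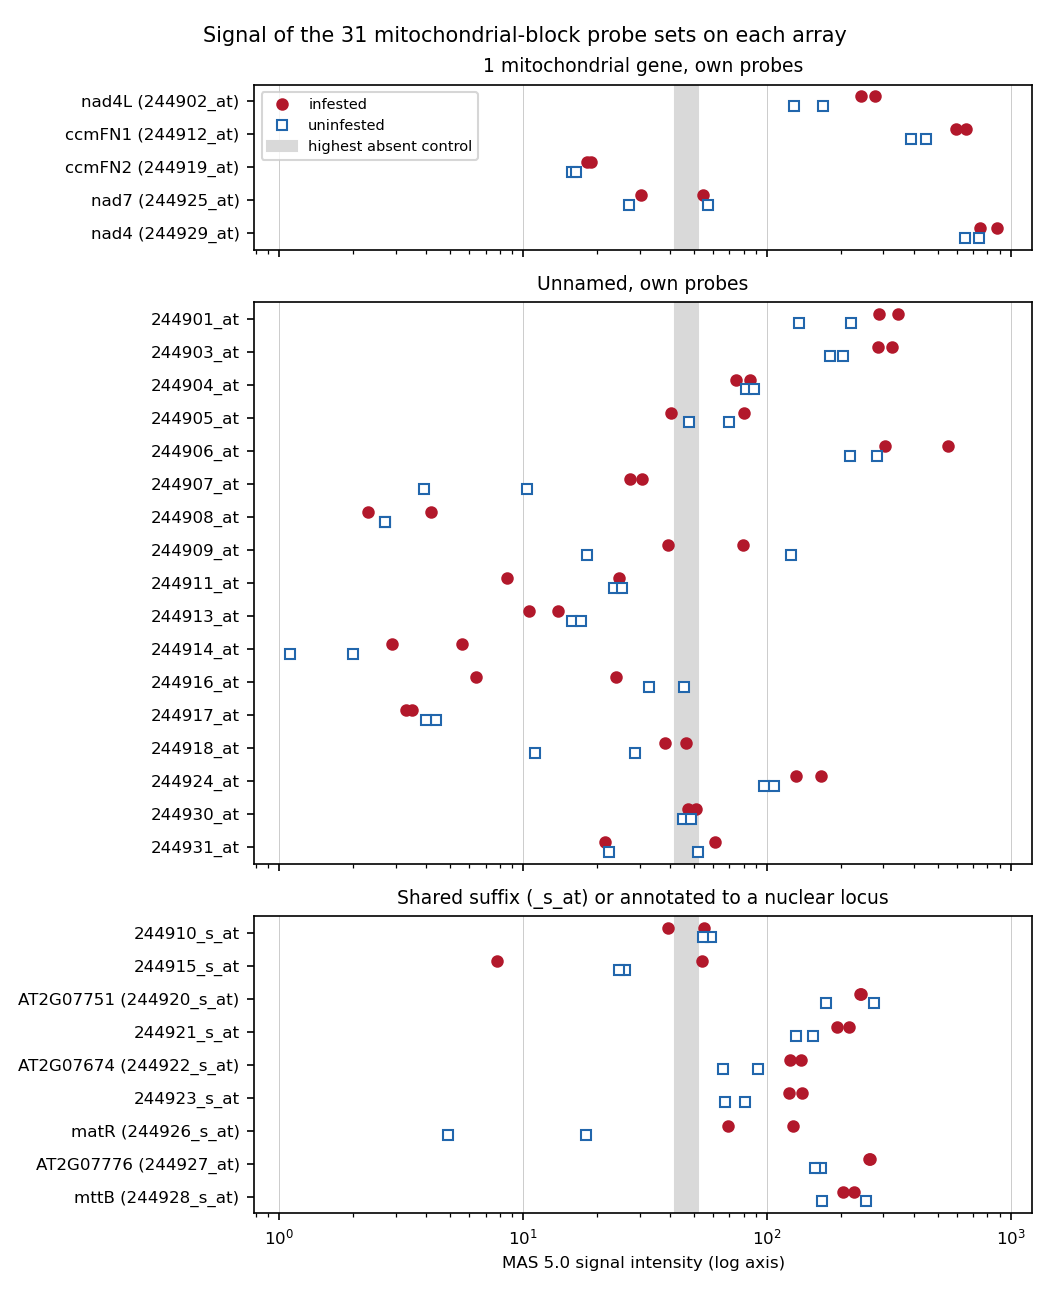
Signal (horizontal log axis) of the 31 probe sets on each array, with infested arrays as filled red circles and uninfested arrays as open blue squares; the grey band spans the highest absent-transcript control of each array, 41.7 to 52.1. The 14 probe sets right of the band on all arrays include the 11 tested ones, and most unnamed members have values within or left of it.

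The complex I genes come first by role. This complex takes electrons from NADH at the start of the respiratory chain, and nad4L, nad4 and nad7 encode 3 of its subunits. The nad4L probe set, 244902_at, read 242.9 and 275.8 on the infested arrays, against 128.3 and 168.7 on the uninfested arrays. Both infested values lay above both uninfested ones. Its mean was 259.4 ± 23.3 in infested and 148.5 ± 28.6 in uninfested leaves (SD, n = 2 arrays each). The change in log2(signal + 16) was 0.75 ± 0.21 (SE) and did not pass limma's test (adjusted p = 0.0959). The replicate number was also used as a block, though the labels do not say which arrays share an experiment. With this block nad4L was higher by the same 0.75 and passed (limma adjusted p = 0.0450). It also passed without infested replicate 1, at 0.84 (adjusted p = 0.0330). It did not pass without infested replicate 2 (0.67, adjusted p = 0.138), uninfested replicate 1 (0.57, adjusted p = 0.538) or uninfested replicate 2 (0.93, adjusted p = 0.286).

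The nad4 probe set, 244929_at, read 745.8 and 873.3 in infested leaves, against 647.2 and 737.1 in uninfested leaves. The lower infested value was close to the higher uninfested one, and the groups did not overlap. Its log2 change of 0.22 ± 0.18 (SE) did not pass the test (limma adjusted p = 0.460, or 0.424 with the block). With 1 array left out it was between 0.11, without infested replicate 2, and 0.33, without infested replicate 1. The nad7 probe set, 244925_at, was too dim to test. It read 30.3 and 54.5 in infested leaves, against 57.2 and 27.1 in uninfested leaves. Its groups overlapped, and on each group's arrays 1 of 2 values lay above the brightest control for an absent transcript.

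Cytochrome c maturation attaches heme to cytochromes c and c1, and ccmFN1 and ccmFN2 encode parts of its heme lyase. The annotation lists them under their older names ccb382 and ccb203. The ccmFN1 probe set, 244912_at, read 651.2 and 592.8 in infested leaves, against 449.7 and 388.1 in uninfested leaves. Infested values were higher without overlap. The log2 change of 0.55 ± 0.17 (SE) did not pass (limma adjusted p = 0.113, or 0.0657 with the block). The ccmFN2 probe set, 244919_at, read 18.3 and 18.9 in infested leaves, against 15.8 and 16.4 in uninfested leaves, all below the brightest absent-transcript control, and was not tested.

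Among the 17 unnamed members with probes of their own, 4 were tested. The first probe set of the run, numbered just before nad4L's, read 286.3 and 342.8 in infested leaves, against 135.2 and 220.9 in uninfested leaves. The groups did not overlap, but the uninfested arrays differed from each other by more than the infested ones did. Its log2 change was 0.80 ± 0.26 (SE; limma adjusted p = 0.127), and it passed with the block (adjusted p = 0.0358). Without uninfested replicate 1 its change was 0.48, below those of nad4L, 244903_at, 244906_at, ccmFN1 and AT2G07776 in the same fit. Without uninfested replicate 2 it was 1.12, and it passed neither time. 244903_at read 284.7 and 325.5 in infested leaves, against 180.9 and 204.5 in uninfested leaves, a log2 change of 0.62 ± 0.18 (SE; limma adjusted p = 0.102, or 0.0676 with the block). Its values were close within each group and far apart between them.

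Of the 11 tested members, 244906_at differed most between the infested arrays. It read 304.9 and 550.7 in infested leaves, against 219.3 and 282.7 in uninfested leaves, and its lower infested value was near the higher uninfested one. Its log2 change of 0.69 ± 0.31 (SE) had an adjusted p of 0.214 by limma and of 0.0535 with the block. Without infested replicate 1 it was 1.10, and without infested replicate 2 it was 0.28, the lowest of its values with an array left out. 244924_at, the dimmest of these 4, read 131.6 and 166.9 in infested leaves, against 97.1 and 106.5 in uninfested leaves, with no overlap (log2 change 0.48, limma adjusted p = 0.219).

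The other 13 unnamed members with probes of their own were too dim to test. Only 244904_at among them lay above the brightest absent-transcript control on every array, with 85 and 74.4 in infested leaves, against 81.7 and 88 in uninfested leaves. Its groups overlapped. Among the dimmest, 244907_at had 27.5 and 30.7 in infested leaves, against 3.9 and 10.4 in uninfested leaves, and 244916_at had 24.1 and 6.4 in infested leaves, against 45.8 and 32.9 in uninfested leaves. Every value of both lay below the control level of its array. 244909_at had 39.2 and 79.7 in infested leaves, against 18.2 and 125.1 in uninfested leaves, so that the uninfested values enclosed both infested ones.

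Probe sets that may also read nuclear copies were varied. AT2G07776, read by 244927_at, had 261 and 263.9 in infested leaves, against 166.1 and 157.5 in uninfested leaves. Its arrays differed little within a group, and its adjusted p of 0.0869 was the lowest of the 11 tested members (log2 change 0.65 ± 0.17, SE; 0.0680 with the block). AT2G07751, read by 244920_s_at, had 239.7 and 243 in infested leaves, against 175 and 274.7 in uninfested leaves, so that both infested values lay between the uninfested ones. AT2G07674, read by 244922_s_at, had 138.1 and 123.6 in infested leaves, against 65.6 and 91.9 in uninfested leaves. Its groups did not overlap, but its mean was just under the filter and it was not tested.

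The mttB gene, listed as orfX, encodes a protein like the TatC subunit of a membrane translocase. Its probe set 244928_s_at read 228 and 204.2 in infested leaves, against 253.6 and 167.7 in uninfested leaves. The infested values fell between the uninfested ones, with a log2 change of 0.06 (limma adjusted p = 0.897) that was -0.02 without infested replicate 1 and -0.22 without uninfested replicate 2. The unnamed 244921_s_at read 193.8 and 216.7 in infested leaves, against 131.7 and 154.8 in uninfested leaves (log2 change 0.48, limma adjusted p = 0.184). The unnamed 244923_s_at read 123.2 and 138.6 in infested leaves, against 67 and 81 in uninfested leaves, and was under the filter. Both were higher in infested leaves without overlap. Also of the 9 kept apart, 244910_s_at and 244915_s_at lay at 7.8 to 54.9 in infested leaves, against 24.8 to 58.7 in uninfested leaves, with overlap.

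The matR gene lies in an intron of nad1 and encodes a maturase that helps to splice mitochondrial introns. Its probe set 244926_s_at is the last of the 9 kept apart, as its suffix marks shared probes. It was under the filter, and it read 69.1 and 127.3 in infested leaves, against 4.9 and 18.1 in uninfested leaves. Both infested values lay above the brightest absent-transcript control of their arrays (52.1 and 41.7) and both uninfested values lay below theirs (49.2 and 48.8), so no fold is given. With every probe set tested, limma gave matR an adjusted p of 0.0894. With the block as well it passed (adjusted p = 0.0271), as 1 of 31 members, where 2.73% of all 22746 probe sets were called higher; this combined setting was chosen after the data were seen.

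**Figure D2:**
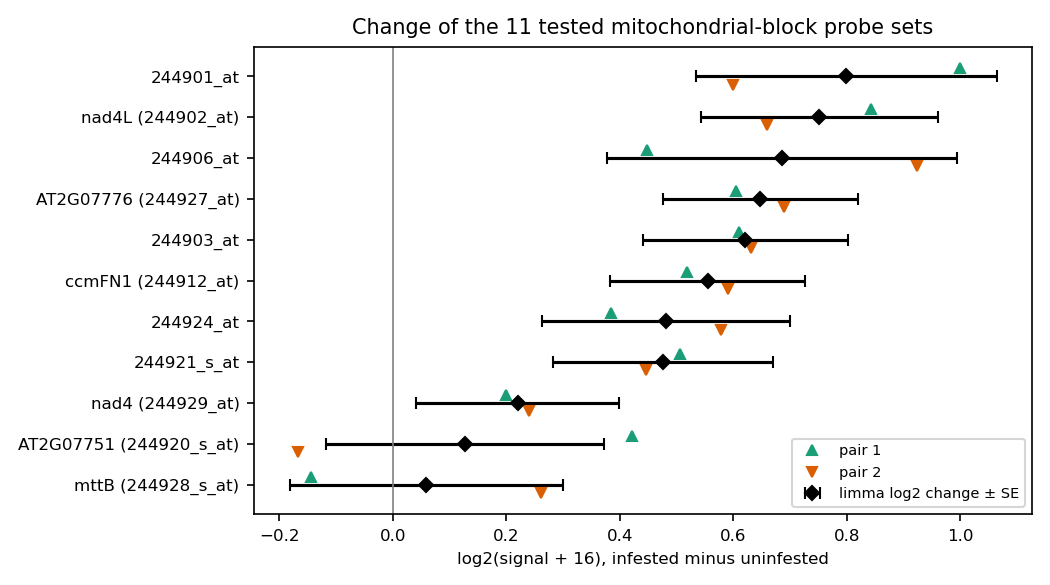
Infested minus uninfested difference in log2(signal + 16) for the 11 tested probe sets, as the limma estimate with its SE (black diamonds) and for each pair of same-numbered arrays (triangles). The estimates lie between 0.06 and 0.80, and 9 of 11 members have both pairs above 0; AT2G07751 and mttB do not.

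Taken pair by pair, the 11 tested members had a median log2 difference of 0.51 in pair 1 and 0.59 in pair 2, against 0.08 and -0.01 over all tested probe sets. The difference was above 0 in both pairs for 9 of the 11, against 40.9% of all tested probe sets. With the replicate block, 2 of 11 (18.2%) were called, nad4L and the first probe set of the run, both higher. Both are among the 7 with probes of their own. Of all tested probe sets 19.5% were called with the block, 9.19% higher and 10.3% lower. The share of the 11 called in either direction is thus near that of all tested probe sets. Without infested replicate 1, limma called 5 of the 11 higher (the first of the run, nad4L, 244903_at, 244906_at and AT2G07776), where 15.1% of all tested probe sets were called higher. Without infested replicate 2 limma called none of the 11, although it called probe sets outside the run in both directions. Without either uninfested array it called no tested probe set, in the run or outside it. The median log2 change of the 11 was 0.40 without infested replicate 2, against 0.07 over all tested probe sets. It was 0.48 without uninfested replicate 1 and 0.58 without uninfested replicate 2, against 0.02 and 0.05 over all tested probe sets.

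Counted over all 31 members, dim ones included, the picture was more mixed. The log2 change was above 0 for 23 of 31, against 53.2% of all 22746 probe sets, and the median was 0.13, against 0.03. Infested arrays lay wholly above uninfested arrays for 16 members and wholly below for 3, against 29.3% and 24.4% of all probe sets. The 3 lower ones, 244913_at, 244916_at and 244917_at, read below the absent-transcript controls on every array. So did 244907_at, 244914_at and ccmFN2 among the 16 higher ones. The 22 members with probes of their own had a median of 0.09 and the 9 others of 0.48, or 0.62 for the 7 tested and 0.30 for the 4 tested ones.

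Other probe sets of the mitochondrial genome lie outside this run of ids, and 16 of them are annotated to a single mitochondrial gene. All 10 tested ones had a change above 0, the median being 0.73 on the log2 scale, and limma called 0 of them higher and 0 lower (9 at an unadjusted p under 0.05; adjusted p from 0.0745 to 0.633). With the block 7 of 10 were called, all higher, where 9.19% of all tested probe sets were called higher. The 10 are fewer genes, as 257321_at, 257322_at, 257324_at and 257325_at all read nad1. Those called include 257324_at and 257325_at of nad1. They also include 244951_s_at of ccmFC and 257338_s_at of nad5, whose suffix marks shared probes and which are not kept apart here. The nad5 probe set 257338_s_at, 1 of these 10, passed the filter through its infested values alone, and without it 6 of 9 were called with the block. The nad1 gene has 7 of the 16 probe sets, and their values differed in sign. Of these, 257325_at was at 1.10 and 257323_at, too dim to test, at 0.97. Another, 257327_at, read 33.4 and 55.7 in infested leaves, against 88.6 and 98.4 in uninfested leaves, the only value below 0 of the 16 (-0.88), and it was not tested.

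Plastid genes, the other organelle genome of the leaf, had values of the opposite sign for the most part. Of 68 tested plastid probe sets 14 had a log2 change above 0, and the median was -0.16. The gene rpl36 alone was called, and it fell (-1.02, limma adjusted p = 0.0414). With the block 11 of the 68 were called lower and 1 higher (17.65% in all), near the 19.5% of all tested probe sets called in either direction, 10.3% of them lower. The largest values were 0.71 for petD and 0.49 for rbcL and the lowest were -1.16 for rpl22 and -1.02 for rpl36. Both organelle groups were set against the same arrays, and the difference between them was not tested.

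**Figure D3:**
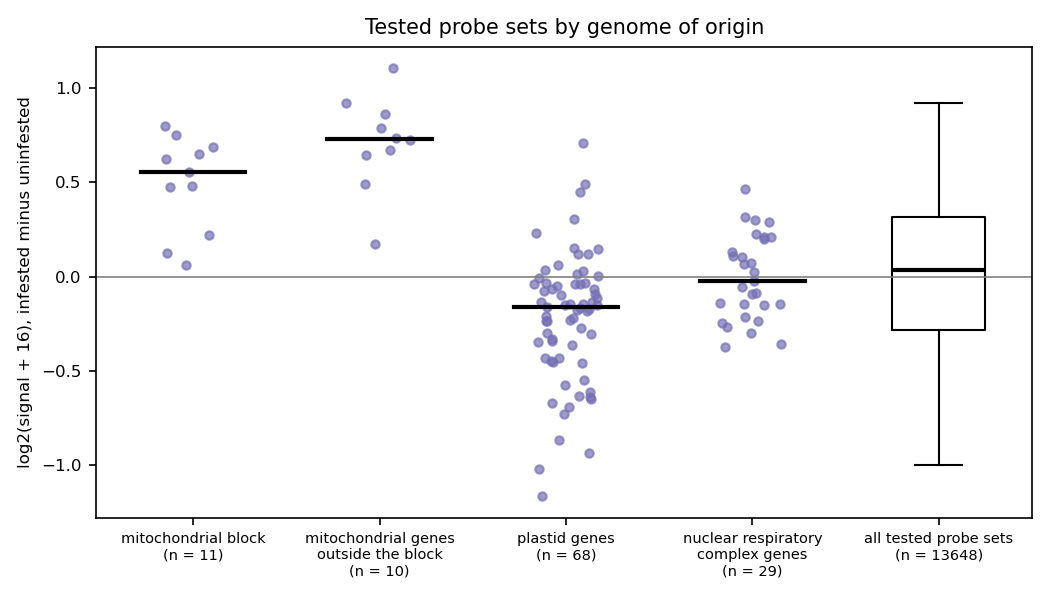
Infested minus uninfested difference in log2(signal + 16) of tested probe sets, each point 1 probe set, with black bars at the median; the box for all 13648 tested probe sets spans the quartiles, with whiskers at the 5th and 95th percentiles. Medians are 0.56 for the mitochondrial run of ids, 0.73 for other mitochondrial genes, -0.16 for plastid genes and -0.02 for nuclear genes of the respiratory complexes.

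Nuclear genes that supply the rest of the respiratory chain had a median change near 0, and none passed the test. Of 57 listed subunits of complexes I to IV, cytochrome c and ATP synthase, 29 were tested, 14 had a log2 change above 0, and the median was -0.02. Limma called 0 of the 29 higher and 0 lower, with 1 at an unadjusted p under 0.05, and 0 with the block. Of all tested probe sets it called 2.83% higher and 2.54% lower, and 19.5% in either direction with the block. At an unadjusted limma p under 0.05, 14.1% of all tested probe sets were higher and 13.6% lower. The range of the 29 was from -0.37 for AT1G51650, an ATP synthase epsilon subunit gene, to 0.47 for CYTC-2, a cytochrome c gene. AT1G51650 read 1999.6 and 1978 in infested leaves, against 2532.5 and 2634.4 in uninfested leaves.

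By complex, the nuclear subunits of complex I had 11 tested genes with a median of -0.09, and those with the smallest p were AT2G33220 (-0.27), AT4G02580 (-0.24), AT5G11770 (0.21) and AT2G20360 (-0.24). The 3 tested genes of complex II, succinate dehydrogenase, were SDH2-1 (0.30), SDH2-2 (0.21) and SDH1-1 (0.07). In complex III and cytochrome c, 6 genes had a median of 0.07, with CYTC-1 at 0.29, AT5G40810 at -0.22 and AT3G27240 at -0.14. In complex IV, 5 genes had a median of 0.07, with AT2G47380 at 0.31, AT3G15640 at -0.14, AT5G61310 at 0.10 and AT1G80230 at 0.07. The 4 ATP synthase genes were all below 0 by value, AT5G47030 at -0.30, AT4G26210 at -0.36 and AT4G29480 at -0.09 beside AT1G51650.

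Alternative routes of respiration pass electrons around complex I or complex III. Of 14 listed genes 5 had a named probe set: NDB1, NDB2, NDB3, NDB4 and NDC1. NDB4 was too dim to test. Of 4 tested genes 0 passed limma's test, with 1 at an unadjusted p under 0.05. NDB2, an external NAD(P)H dehydrogenase gene, read 812.1 and 1401.5 in infested leaves, against 434 and 397.6 in uninfested leaves. Its values did not overlap between groups, and the infested arrays were far apart. The log2 change was 1.33 (limma adjusted p = 0.0558), and NDB2 passed with the block (adjusted p = 0.00715), as the only 1 of 39 tested nuclear genes of mitochondria to do so, where 9.19% of all tested probe sets were called higher. NDB3 had 0.32, NDB1 -0.44 and NDC1 -0.39.

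Of the genes that transcribe mitochondrial DNA and process its RNA, 2 of 24 listed were tested and 0 passed. AT5G46920, which encodes the nuclear intron maturase nMAT2, read 410.7 and 447.2 in infested leaves, against 276.6 and 327 in uninfested leaves (log2 change 0.49, limma adjusted p = 0.145). AT5G04050 had -0.05. AT5G15700, the gene of the organellar RNA polymerase RPOTmp, was too dim to test, with 87 and 94.3 in infested leaves, against 27.7 and 40.1 in uninfested leaves. Only 7 of the 24 listed genes had a named probe set. Among the untested ones of these, AT5G15700 had the largest log2 change (1.11). The other untested ones were AT4G11690 at 0.37, AT1G74350 at 0.36, OTP43 at 0.33 and AT5G14580 at -0.04. CCMH of cytochrome c maturation had 0.08, OSB1 of mitochondrial genome maintenance had 0.08, and the stress response genes AT5G09570 and AT2G21640 had 0.13 and -0.31. None of the tested ones passed with the block.

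Several control values moved with the groups. The 25S ribosomal RNA control, for an RNA without a long poly(A) tail, read 156.9 and 302.8 on infested arrays, against 94.6 and 133.8 on uninfested arrays, and 5S read 77 and 36.2 on infested arrays, against 78.3 and 49.3 on uninfested arrays. Relative to the mean of the uninfested arrays, 25S stood at 1.37 and 2.65 on the infested arrays, while the median of the 11 tested members stood at 1.35 and 1.63. The 3' to 5' signal ratio, a sign of RNA integrity, was 5.70 and 6.56 on infested and 2.70 and 3.88 on uninfested arrays for one actin pair. The other actin pair had 1.31 and 1.43 on infested arrays, against 1.43 and 1.42 on uninfested arrays. The ratio was lower on both infested arrays for 3 pairs: ubiquitin pairs with 2.08 and 1.87 on infested, against 2.77 and 2.34 on uninfested arrays, and with 1.45 and 1.31 on infested, against 1.64 and 1.74 on uninfested arrays, and a GAPDH pair with 0.975 and 1.02 on infested, against 1.17 and 1.15 on uninfested arrays. The other GAPDH pair had 1.14 and 1.17 on infested arrays, against 1.09 and 0.980 on uninfested arrays. The part of these values in the mitochondrial result was not tested.

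**Figure D4:**
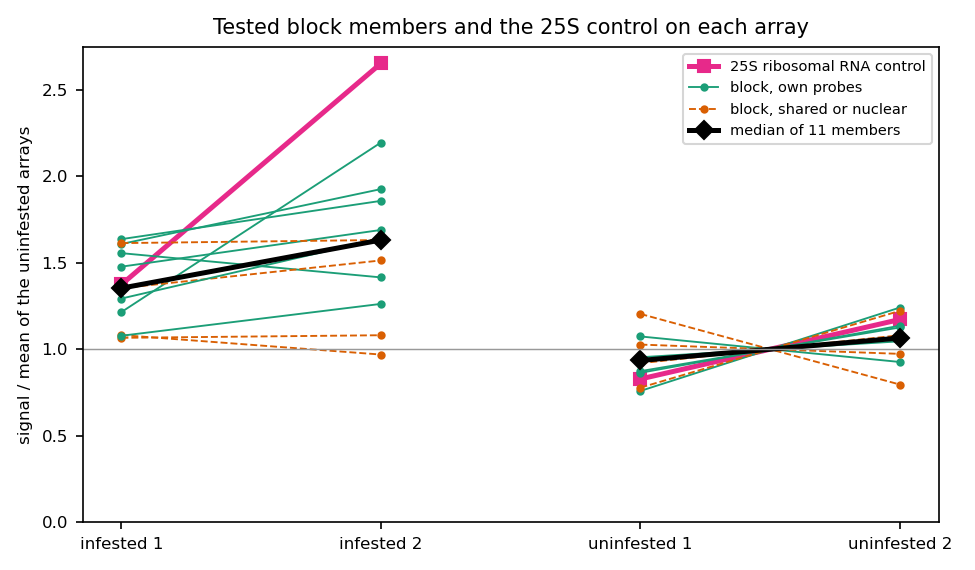
Signal on each array divided by the mean of the 2 uninfested arrays, for the 11 tested members (thin lines), their median (black) and the 25S ribosomal RNA control (pink); lines join the 2 arrays of a group. The median is 1.35 and 1.63 on the infested arrays, where the 25S control is 1.37 and 2.65.

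Markers of other cell types could be followed for guard cells only, where AT1G22690 fell (log2 change -0.98, limma adjusted p = 0.0411) and the summed signal of 2 of 4 listed markers was 1018 to 1194 on infested and 1995 to 2094 on uninfested arrays. Most of that sum was AT1G22690, with 937.6 and 854.2 on infested arrays, against 1840.7 and 1711.1 on uninfested arrays. FMA of that list had -0.36, and its groups overlapped, with 256.1 and 163.9 on infested and 253.4 and 283.5 on uninfested arrays. None of the listed markers of phloem, xylem, trichomes, dividing cells and flowers had a named probe set here, and their part was not tested. The 4 tested reference genes, AT4G34270, PEX4, AT2G28390 and GAPC2, had log2 changes of 0.31, 0.24, -0.13 and 0.05, and 0 passed.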

How the data were processed

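Leaf RNA was hybridized to 4 Affymetrix ATH1 arrays of 1 colour, grouped by sample title. The deposited values are signal intensity on a linear scale from MAS 5.0, per the submitters' processing notes and the series text; detection calls were not used. The trimmed mean, without 2% at each end, was 500.0 on each array. The members and lists were chosen with earlier results of these data known.

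Of 22810 probe sets 64 controls were left out. Each of the rest was fitted with limma 3.58.1 in R 4.3.3 (variance trend, no block, 2 residual and 3.66 prior degrees of freedom) and adjusted over all 13648 tested. The fit was checked on simulated data with independent arrays and the same spread in both groups. The real infested arrays differed more than the uninfested ones, so the check does not cover that setting. Absent-transcript controls were 27 probe sets for bacterial transcripts. Platform names of the 7 mitochondrial genes matched symbols or synonyms in RefSeq (TAIR10.1), whose gene numbers differ; list genes took their brightest probe set. All 31 members were named by rule, with up to 4 tested genes of each list by smallest p. The untested genes of mitochondrial transcription and RNA processing that had a named probe set were given outside this rule.

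Infested and control RNA came from shared experiments per the series text, so the replicate number was taken to pair arrays; deviations of same-numbered arrays correlated at 0.264 over tested probe sets. The alternatives were other pseudocounts, filters and scalings, no variance trend, the block and leaving out each array.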

Additional observations from a re-analysis of the deposited data

Results flagged for a closer look

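The 25S ribosomal RNA control probe set, which no comparison uses, had an infested mean 2.01 times the uninfested mean, with both infested arrays above both uninfested ones. The matR probe set, under the filter on dim probe sets and so outside the main comparison, had an infested mean signal of 98.2, above the absent-transcript controls on both infested arrays and below them on both uninfested arrays. Groups of 2 arrays are too small for a test of outlying arrays.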

How the results depend on the processing

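With 2 arrays per group, their number limits every value, and dim signal limits 20 of the 31 members, 8 of which read no higher than the absent-transcript controls on all arrays. Of 124 values of the 11 tested members under the alternatives, 114 kept direction and side of the threshold, 7 passed it and 3 changed sign: AT2G07751 without uninfested replicate 1 (range with an array left out -0.18 to 0.43), and mttB without infested replicate 1 (-0.02) and without uninfested replicate 2 (range -0.22 to 0.34). The filter at the 60th percentile left only 3 of the 11 members tested, so the others have no value there. The member median was 0.13 over 31 with every probe set tested, and 0.40 to 0.64 with an array left out. Members called higher numbered 2 with the replicate block, 1 with the block and every probe set tested, and 0 to 5 with an array left out. Nuclear genes of mitochondria called higher numbered 1 with the block (NDB2) and 0 to 3 with an array left out, and those called lower 0 to 4. Over all probe sets, 1254 were higher and 1403 lower with the block, which changed no other call of a member. Testing every probe set gave 0 and 0 (2453 and 2203 at an unadjusted p under 0.05), no variance trend gave 199 lower, median scaling gave 589 lower, and leaving out an array gave 0 to 2065 higher and 0 to 2487 lower. With an array left out, only the intact group gives a spread. The cause of these differences was not tested.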
